A study of Rattus norvegicus with 16 samples.

Results

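Glutathione S-transferases are the enzymes that join glutathione to electrophilic compounds, and they are described here across the livers of 16 rats. The family was represented by 10 genes, Gsta3 and Gsta4 of the alpha class, Gstm1, Gstm2 and Gstm4 of the mu class, Gstp1 of the pi class, Gstt1 and Gstt2 of the theta class, the kappa gene Gstk1 and the membrane-bound Mgst1. A gene was measured by a probe set whose annotation lists that symbol alone, and by the one with the highest mean over all arrays where several exist. By this rule 9 of the 10 genes were measured, of 13490 genes with a probe set of their own, and all 9 passed the filter on dim probe sets. Gstt1 was the exception, because its probe sets are listed for Gstt3 too. The annotation gives Gsta4 the same symbol under a pair of gene identifiers, of which 1 is a current rat gene. The rule names genes by symbol, and between probe sets of 1 gene it uses the mean signal over all arrays, not the groups.

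Liver RNA came from 4 groups of 4 male F344 rats, an inbred strain, with 1 Affymetrix RG-230 PM array each. Per the labels the rats were 4 weeks old, and feeding and treatment lasted 3 weeks. The hydrogen CDAA group ate the CDAA feed, in which L-amino acids replace protein and choline is lacking, drank hydrogen-rich water with 0.7 mM dissolved hydrogen and lived in 2% hydrogen in air. The control CDAA group ate the same diet with dehydrogenized water and plain air. The hydrogen normal-diet group and the control normal-diet group ate CE-2 chow under these same conditions of water and air. The CDAA diet is a purified feed that produces fatty liver in rats. Since the normal diet was chow, each diet comparison covers all differences between the 2 feeds. Control water was made from the hydrogen-rich water by stirring it in the open.

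The soluble classes are dimeric enzymes of the cytosol, where they make toxic aldehydes, epoxides and drug metabolites soluble for export. They are abundant in hepatocytes, and many of their genes are induced through the transcription factor NRF2 at antioxidant response elements. In the rat, the placental form encoded by Gstp1 is low in normal hepatocytes and is the standard marker of preneoplastic foci. The questions put to the data were what the CDAA diet changed in each class, with and without hydrogen, and what hydrogen changed on each diet.

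The values are log2 signals after RMA, between 2.42 and 13.73 over the table, with array medians of 4.33 to 4.37. A probe set was tested when it exceeded 3.68 log2 on at least 4 arrays, and an adjusted p under 0.05 in limma counted as a call. Hepatocyte markers were high throughout, with a mean over 12 genes of 11.68 to 11.75 log2 in hydrogen CDAA livers, 11.78 to 11.95 in control CDAA livers, 11.81 to 11.94 in hydrogen normal-diet livers and 11.85 to 11.95 in control normal-diet livers. All hydrogen CDAA arrays lay below every other array in this mean. Of the 12 markers, 2 rose and 3 fell on the CDAA diet in control rats, and 3 rose and 4 fell under hydrogen. Over all genes tested, 27.3% rose and 13.3% fell in control rats, and 32.1% and 17.4% under hydrogen. One array stood apart. On the leading principal component, with 66% of the variance, control normal-diet replicate 4 lay at −13.4, while the other 3 of its group lay between −35.1 and −32.3 and CDAA arrays between 23.8 and 40.1. Without it, 2 members still rose and 3 fell on the CDAA diet in control rats, with Gstk1 no longer a call (adjusted p = 0.051).

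The promoters of the 2 members with the largest increases on the CDAA diet, Gsta3 and Gstp1, are shown because they were the ones in which the core letters of the antioxidant response element were found. The stretches are the 250 bases before the annotated start, from RefSeq on GRCr8, with the match to TGACNNNGC in capitals. For Gstp1 it is chr1:210769706-210769955 on the minus strand, and for Gsta3 chr9:31154739-31154988 on the plus strand.
Gstp1: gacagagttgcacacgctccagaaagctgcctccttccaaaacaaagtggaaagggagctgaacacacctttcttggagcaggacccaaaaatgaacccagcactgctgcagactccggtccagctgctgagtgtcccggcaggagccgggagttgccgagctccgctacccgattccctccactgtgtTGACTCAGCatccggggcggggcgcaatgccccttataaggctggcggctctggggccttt
Gsta3: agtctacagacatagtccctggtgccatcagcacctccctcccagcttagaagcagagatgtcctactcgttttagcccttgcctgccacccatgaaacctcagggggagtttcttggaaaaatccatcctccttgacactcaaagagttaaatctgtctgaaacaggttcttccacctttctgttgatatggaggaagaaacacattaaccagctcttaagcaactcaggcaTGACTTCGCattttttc

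The match began 61 bases before the start of Gstp1 and 17 bases before the start of Gsta3. Windows of 300 bases, from 250 before to 50 after the start, were given for 8 members, and TGACNNNGC, searched on both strands, occurred in 2 of them. Over all 33469 such windows it occurred in 12.1%. That is a share of single windows, while a member counted when any of its windows matched. In Gstp1 the same place also matched the AP-1 letters TGANTCA, which overlap it and occurred in 7.33% of all windows. The AP-1 letters were found in Mgst1 as well. Gsta3 has a further annotated start, whose window held neither the TGACNNNGC nor the AP-1 letters. The core GCGTG of the xenobiotic response element, bound by the dioxin receptor, occurred in 4 of the 8 members, for Gsta3 only at its other start, and in 29.7% of all windows. The TGACNNNGC match is not particular to genes that rose, since Gsta1, the coding gene next to Gsta3, had one that began 30 bases past its start. Of the 29 letters around each match, 24 were the same in Gsta3 and Gsta1.
Gsta3: aactcaggcaTGACTTCGCattttttcct
Gsta1: aactcaggcaTGACTTTGCatttttcttc

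The CDAA diet moved the family in both directions. In control rats 2 of the 9 measured members rose and 4 fell, against 27.3% of all 11484 genes tested that rose and 13.3% that fell. Under hydrogen 3 rose and 4 fell, against 32.1% and 17.4% of all genes. The groups did not overlap for 5 members in control rats and 6 under hydrogen, against 38% and 43.9% of all genes. The median log2 change over the members was −0.02 in control rats and −0.04 under hydrogen, against 0.04 and 0.05 over all genes. All 6 members called in control rats were called in the same direction under hydrogen. The group means in these comparisons come from different arrays, but the fit of all arrays gave both comparisons the same standard error for each member. The calls are therefore not independent of each other. Of all genes called in control rats, 80.7% were called in the same direction under hydrogen, which was 66.2% of those called under hydrogen. For the members the shares were 100% and 85.7%.

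**Figure D1:**
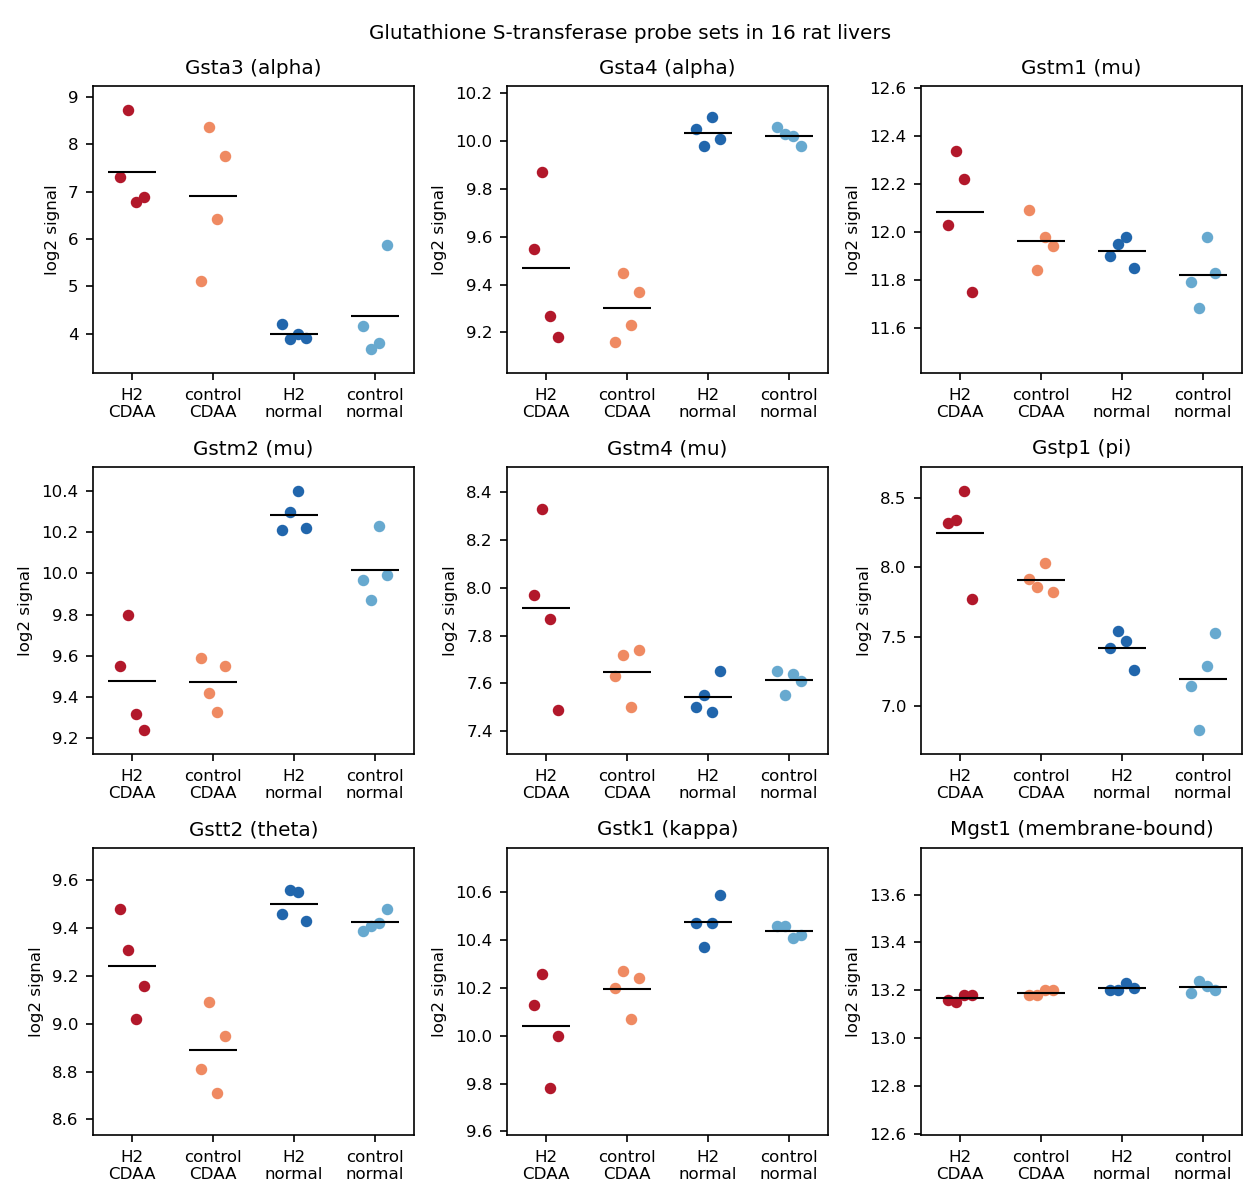
Log2 signal of each measured glutathione S-transferase (y axes differ between panels) in the 4 groups of 4 livers, 1 point per array and the group mean as a line. Gsta3 and Gstp1 lie higher on the CDAA diet, Gsta4, Gstm2, Gstt2 and Gstk1 lie lower, and Mgst1 stays between 13.15 and 13.24.

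The alpha class held the largest increase and a decrease. Gsta3 (probe set 1371089_PM_at) encodes the rat subunit formerly called Yc2, which is known for its activity with the epoxide of aflatoxin and for its induction by antioxidants. Its signal was 7.30, 8.72, 6.77 and 6.89 log2 in hydrogen CDAA livers and 5.12, 8.35, 6.42 and 7.74 in control CDAA livers. On the normal diet it was 4.21, 3.90, 4.00 and 3.91 in hydrogen livers and 4.17, 3.68, 3.81 and 5.88 in control livers. The normal-diet values lay near the 3.68 line used for filtering, apart from the array that stood apart. That array, control normal-diet replicate 4, exceeded control CDAA replicate 1, so the control groups overlapped. Under hydrogen the groups did not overlap.

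Gsta3 rose 5.75-fold on the CDAA diet in control rats (log2 2.52 ± 0.608, standard error, n = 4 per group, limma adjusted p = 0.00414) and 10.7-fold under hydrogen (log2 3.42 ± 0.608, adjusted p = 0.000331). The increase in control rats depended on single arrays for its size but not for its call. It was 8.12-fold without control normal-diet replicate 4 and 8.68-fold without control CDAA replicate 1. The spread within the control CDAA group (SD 1.44) was the widest of any member in any group. In whole liver, a change in the cells that make a transcript and a change in transcript per cell cannot be told apart.

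Gsta4 (1372297_PM_at), whose product conjugates hydroxynonenal and related aldehydes of lipid peroxidation, moved the other way. It had 9.55, 9.87, 9.27 and 9.18 log2 in hydrogen CDAA livers, against 10.05, 9.98, 10.10 and 10.01 in hydrogen normal-diet livers. In control rats it had 9.16, 9.45, 9.23 and 9.37 on the CDAA diet, against 10.06, 10.03, 10.02 and 9.98 on the normal diet. No CDAA array reached a normal-diet array. The decrease was 1.65-fold in control rats (log2 −0.72 ± 0.112, adjusted p = 0.000158) and 1.48-fold under hydrogen (log2 −0.57 ± 0.112, adjusted p = 0.00077). All normal-diet values lay within 9.98 to 10.10, while those of the CDAA diet spread from 9.16 to 9.87.

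Among the other alpha genes, the probe set listed for both Gsta2 and Gsta5, the classic Ya subunit genes, cannot be assigned to either. Its signal averaged 10.76 ± 0.27 log2 in control CDAA livers and 11.86 ± 0.03 in control normal-diet livers (SD, n = 4 each), a decrease of 2.14-fold (adjusted p = 1.58e-05). Under hydrogen it averaged 10.68 ± 0.26 on the CDAA diet and 11.94 ± 0.11 on the normal diet, 2.39-fold lower (adjusted p = 2.46e-06). Gsta1, the neighbour of Gsta3, fell 1.19-fold under hydrogen (adjusted p = 0.03), but its call there ended in the fit of the 2 groups alone (adjusted p = 0.0614). That call also ended without hydrogen normal-diet replicate 1 or 3 or hydrogen CDAA replicate 1, 3 or 4 (adjusted p = 0.0507 to 0.0921). In control rats the log2 change of Gsta1 was −0.23 (adjusted p = 0.0574), with 11.34 to 11.63 log2 in CDAA livers and 11.67 to 11.79 in normal-diet livers. There it became a call in the fit of the 2 groups alone (adjusted p = 0.0392), with quantile normalization applied again (0.0172), with a trended and robust variance (0.0452) and without control CDAA replicate 2 (0.0349), hydrogen CDAA replicate 2 (0.0215) or hydrogen CDAA replicate 4 (0.0473).

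In the mu class, which supplies much of the glutathione transferase protein of rat liver, 1 of 3 members fell in both comparisons. Gstm2 (1370952_PM_at) had 9.55, 9.80, 9.32 and 9.24 log2 in hydrogen CDAA livers, against 10.21, 10.30, 10.40 and 10.22 in hydrogen normal-diet livers. In control rats it had 9.59, 9.42, 9.33 and 9.55 on the CDAA diet, against 9.97, 9.87, 10.23 and 9.99 on the normal diet. The diets did not overlap in either setting. Gstm2 fell 1.46-fold in control rats (log2 −0.54 ± 0.108, adjusted p = 0.00111) and 1.75-fold under hydrogen (log2 −0.81 ± 0.108, adjusted p = 2.92e-05).

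Gstm4 (1375909_PM_at) was between 7.48 and 7.74 log2 on all arrays of the control CDAA, hydrogen normal-diet and control normal-diet groups. In hydrogen CDAA livers it had 7.97, 8.33, 7.87 and 7.49, so 3 arrays exceeded all others and replicate 4 did not. It rose 1.29-fold on the CDAA diet under hydrogen (log2 0.37 ± 0.121, adjusted p = 0.0206) and had a log2 change of 0.04 in control rats (adjusted p = 0.849). The call under hydrogen ended when hydrogen CDAA replicate 2 was left out (log2 0.23, adjusted p = 0.0629) and in 3 other alternatives. Gstm1 (1386985_PM_at), the neighbouring gene, ranged over 11.75 to 12.34 log2 in hydrogen CDAA livers, 11.84 to 12.09 in control CDAA livers, 11.85 to 11.98 in hydrogen normal-diet livers and 11.68 to 11.98 in control normal-diet livers. Its diet change was 0.14 in control rats (adjusted p = 0.302) and 0.16 under hydrogen (adjusted p = 0.201). Without hydrogen CDAA replicate 4 the change under hydrogen became a call (log2 0.28, adjusted p = 0.0159).

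The mu genes lie in a row on chromosome 2, with the untested Gstm6l, Gstm6 and Gstm3l1 among them, and genes of this row moved in opposite directions. In genome order, Gstm5 rose, Gstm7 fell, Gstm3 rose and Gstm2 fell on the CDAA diet, in control rats and under hydrogen alike. Gstm7 averaged 5.78 ± 0.45 log2 in control CDAA livers and 7.61 ± 0.04 in control normal-diet livers (SD, n = 4 each), 3.54-fold lower (adjusted p = 7.82e-06), and was 3.74-fold lower under hydrogen (adjusted p = 2.31e-06). Gstm3 averaged 6.44 ± 0.54 log2 in control CDAA livers and 5.17 ± 0.41 in control normal-diet livers, 2.41-fold higher (adjusted p = 0.000624), and was 2.02-fold higher under hydrogen (adjusted p = 0.00255). Gstm5 rose 1.52-fold in control rats (adjusted p = 0.00078) and 1.54-fold under hydrogen (adjusted p = 0.00042). The sequences of mu genes are alike, and how far a probe set binds its neighbours' transcripts was not tested.

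**Figure D2:**
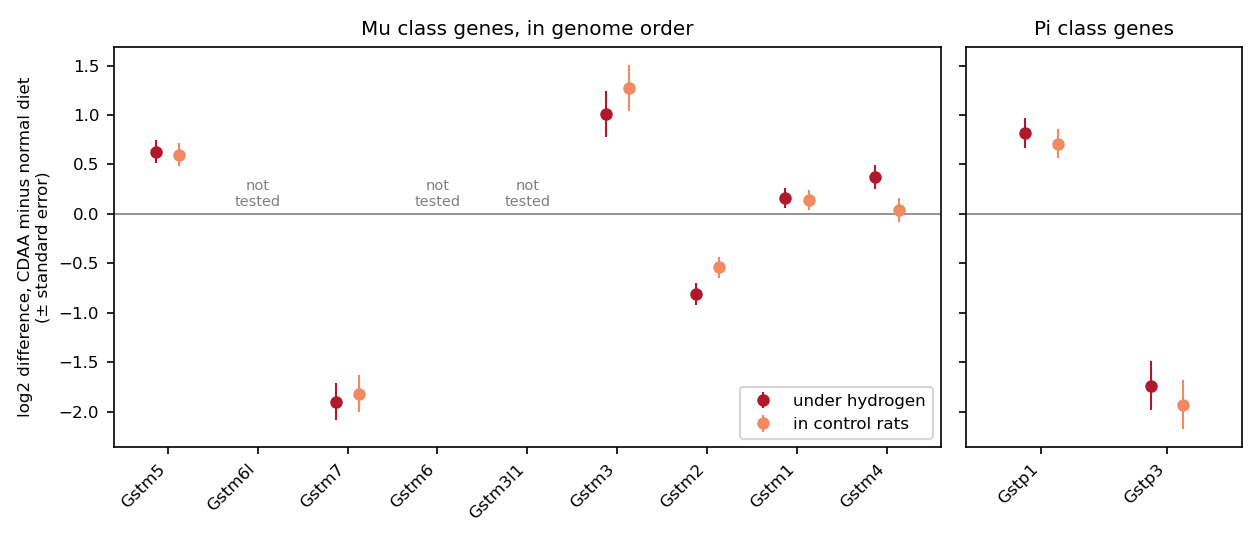
Log2 difference between the CDAA and the normal diet (y axis, ± standard error, n = 4 livers per group) for coding genes of the mu and pi classes in their order along the chromosome, under hydrogen and in control rats. Gstm7 and Gstp3 lie at −1.74 or lower, while Gstm5, Gstm3 and Gstp1 lie at 0.60 or higher in each comparison.

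Gstp1 (1388122_PM_at), the pi class marker of preneoplastic rat liver, rose on the CDAA diet in each setting. It had 8.32, 8.34, 8.55 and 7.77 log2 in hydrogen CDAA livers, against 7.42, 7.54, 7.47 and 7.26 in hydrogen normal-diet livers. In control rats it had 7.92, 7.86, 8.03 and 7.82 on the CDAA diet, against 7.15, 6.83, 7.29 and 7.53 on the normal diet. All 8 CDAA arrays lay above all 8 normal-diet arrays, and the highest of the control normal-diet values was on the array that stood apart. The increase was 1.63-fold in control rats (log2 0.71 ± 0.149, adjusted p = 0.00159) and 1.77-fold under hydrogen (log2 0.82 ± 0.149, adjusted p = 0.000373). Without that array it was 1.76-fold in control rats (adjusted p = 0.000584), and under each alternative run it stayed a call in both comparisons.

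Part of the list of bile duct and progenitor markers rose with Gstp1. Of 16 with a probe set, 2 lay below the filter line on every array, 9 of the 14 tested rose in control rats and none fell, and the same numbers held under hydrogen. Of all genes tested, 27.3% rose and 13.3% fell in control rats, and 32.1% and 17.4% under hydrogen. The mean over the 16 was 6.18 to 6.51 log2 in hydrogen CDAA livers and 5.92 to 6.51 in control CDAA livers, against 5.55 to 5.57 in hydrogen normal-diet livers and 5.46 to 5.77 in control normal-diet livers. Epcam, an adhesion protein of bile duct and progenitor cells, rose 1.76-fold in control rats (adjusted p = 0.000372) and 2.20-fold under hydrogen (adjusted p = 1.44e-05). Anxa5, Krt8 and Lgals3 of this list also rose in both comparisons. The keratin genes Krt7 and Krt19, which define bile duct cells, had log2 changes of −0.05 and 0.13 in control rats (adjusted p = 0.627 and 0.238) and −0.08 and 0.08 under hydrogen (adjusted p = 0.394 and 0.438). Afp, the fetal liver protein, had 0.04 and 0.12 (adjusted p = 0.867 and 0.56). Krt7, Krt19 and Afp are named outside the rule. Of 8 macrophage markers, 4 rose and 1 fell in control rats and 6 rose under hydrogen. In control rats 2 rose without control normal-diet replicate 1 or 2 or control CDAA replicate 3 or 4. Their mean was 7.80 to 8.28 log2 in hydrogen CDAA livers and 7.69 to 8.04 in control CDAA livers, against 7.15 to 7.35 in hydrogen normal-diet livers and 6.94 to 7.62 in control normal-diet livers. Of 10 stellate and endothelial markers, 5 rose in control rats and 8 under hydrogen, with means of 6.67 to 6.91 log2 in hydrogen CDAA livers, 6.64 to 6.80 in control CDAA livers, 6.26 to 6.37 in hydrogen normal-diet livers and 6.11 to 6.55 in control normal-diet livers. In control rats 3 of them rose without control normal-diet replicate 2 or control CDAA replicate 3 or 4, and under hydrogen 5 rose without hydrogen CDAA replicate 1. The part of any of these cells in the Gstp1 result was not tested.

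Gstp3, the coding gene beside Gstp1, was not on any list and was looked up after its values were seen. It averaged 9.64 ± 0.44 log2 in control CDAA livers and 11.57 ± 0.14 in control normal-diet livers (SD, n = 4 each), 3.82-fold lower (adjusted p = 3.28e-05). Under hydrogen it averaged 9.80 ± 0.62 on the CDAA diet and 11.55 ± 0.16 on the normal diet, 3.35-fold lower (adjusted p = 4.29e-05). The pi pair therefore held an increase and a decrease side by side.

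Of the theta class, Gstt2 (1368409_PM_at) had 9.48, 9.31, 9.02 and 9.16 log2 in hydrogen CDAA livers and 8.81, 9.09, 8.71 and 8.95 in control CDAA livers. Its normal-diet values were 9.46, 9.56, 9.55 and 9.43 in hydrogen livers and 9.39, 9.41, 9.42 and 9.48 in control livers. It fell 1.45-fold in control rats (log2 −0.54 ± 0.0912, adjusted p = 0.000327), with no overlap. Under hydrogen it fell 1.20-fold (log2 −0.26 ± 0.0912, adjusted p = 0.0308), with hydrogen CDAA replicate 1 inside the range of the normal diet. That call ended in 5 of 24 alternatives, for example without hydrogen CDAA replicate 3 (log2 −0.18, adjusted p = 0.111). A dimmer probe set of Gstt2 (1396468_PM_at) gave −0.22 in control rats (adjusted p = 0.0687) and −0.28 under hydrogen (adjusted p = 0.0165). The probe sets listed for both Gstt1 and Gstt3 differed from each other. One (1371942_PM_at) averaged 9.56 log2 in control CDAA livers and 8.57 in control normal-diet livers, 1.99-fold higher (adjusted p = 0.000176), and rose 2.33-fold under hydrogen (adjusted p = 1.97e-05). The other (1368354_PM_at) had log2 changes of 0.02 and −0.08 (adjusted p = 0.907 and 0.562). No value is assigned to Gstt1 from them.

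Gstk1 (1398378_PM_at), the kappa enzyme of mitochondria and peroxisomes, had 10.13, 10.26, 9.78 and 10.00 log2 in hydrogen CDAA livers, against 10.47, 10.37, 10.47 and 10.59 in hydrogen normal-diet livers. In control rats it ranged over 10.07 to 10.27 on the CDAA diet, against 10.41 to 10.46 on the normal diet. It fell 1.35-fold under hydrogen (log2 −0.43 ± 0.0838, adjusted p = 0.000653) and 1.18-fold in control rats (log2 −0.24 ± 0.0838, adjusted p = 0.0334). The call in control rats ended in 7 of 23 alternatives, among them quantile normalization applied again (log2 −0.20, adjusted p = 0.0945). Mgst1 (1367612_PM_at), the trimeric enzyme of the endoplasmic reticulum and outer mitochondrial membrane, had log2 changes of −0.02 ± 0.0406 in control rats (adjusted p = 0.701) and −0.04 ± 0.0406 under hydrogen (adjusted p = 0.409), where the diets did not overlap but the test made no call. Its signal of 13.15 to 13.24 lay close to the highest value of the table, 13.73, and whether it was saturated was not tested.

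**Figure D3:**
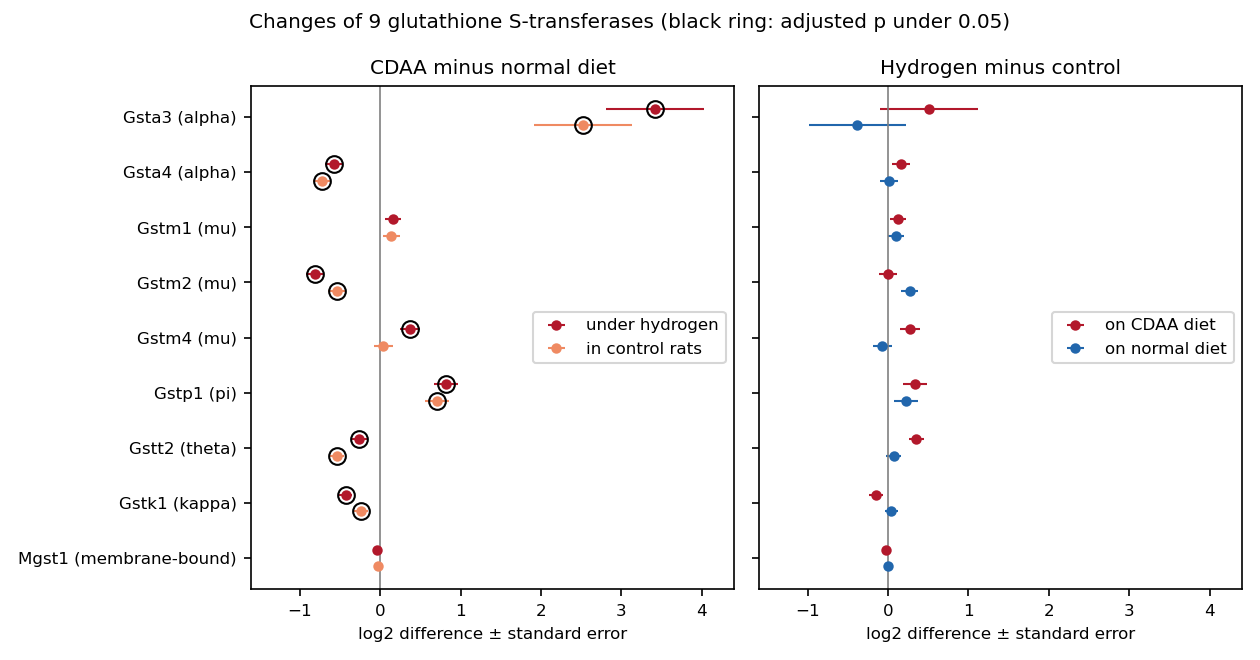
Log2 differences (x axes, ± standard error, n = 4 livers per group) of the 9 measured members between the diets (left) and between hydrogen and control rats (right), with calls ringed in black. In the left panel 7 members have a ring under hydrogen and 6 in control rats, and in the right panel there is none.

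No measured member was called for hydrogen on either diet by limma. On the CDAA diet 0 of 9 were called, where 0.374% of all genes were called in either direction, and 3 had an unadjusted p under 0.05. Gstt2 had a log2 difference of 0.35 ± 0.0912 between hydrogen and control CDAA livers (adjusted p = 0.141), Gstp1 0.34 ± 0.149 (adjusted p = 0.393) and Gstm4 0.27 ± 0.121 (adjusted p = 0.407). For each of the 9 members the hydrogen and control groups overlapped, while 3.78% of all genes did not overlap. For Gstp1 the hydrogen CDAA livers held both the highest and the lowest value, 8.55 and 7.77, against 7.82 to 8.03 in control CDAA livers. Gstt2 became a call without control CDAA replicate 2 (log2 0.42, adjusted p = 0.0314), and over its 24 alternatives no other gave one.

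On the normal diet 0 of 9 members were called, where 0.00871% of all genes were, and 1, Gstm2, had an unadjusted p under 0.05 (log2 0.27 ± 0.108, adjusted p = 0.604). The groups overlapped for every measured member there, while they did not for 5.69% of all genes. For Gsta3 the hydrogen effect was −0.38 ± 0.608 on the normal diet (adjusted p = 0.938), 0.12 without control normal-diet replicate 4, and 0.51 ± 0.608 on the CDAA diet (adjusted p = 0.798), where it was −0.08 without control CDAA replicate 1. The interaction, which asks whether the hydrogen effect differed between the diets, called 0 of 9 members and 0% of all genes. There 1 member, Gstt2, had an unadjusted p under 0.05 (log2 0.28 ± 0.129, adjusted p = 0.538). For Gsta3 the interaction was 0.89 ± 0.86 (adjusted p = 0.787) and was 0.39 without control normal-diet replicate 4 and 0.30 without control CDAA replicate 1, so the diet effects with and without hydrogen differed by about their error.

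The rest of the family, from a list of 20 further genes, held 14 measured ones, of which 3 rose and 4 fell in control rats and 4 rose and 6 fell under hydrogen. Of all genes, 27.3% rose and 13.3% fell in control rats, and 32.1% and 17.4% under hydrogen. Gstz1, which doubles as the maleylacetoacetate isomerase of tyrosine breakdown, fell 1.62-fold in control rats (adjusted p = 5.84e-05) and 1.77-fold under hydrogen (adjusted p = 8.03e-06). The membrane-bound Mgst3 fell 1.61-fold (adjusted p = 1.65e-05) and 1.67-fold (adjusted p = 4.52e-06), and Ltc4s, the leukotriene C4 synthase, 2.07-fold (adjusted p = 0.00255) and 1.99-fold (adjusted p = 0.00296). Gstcd rose 1.62-fold in control rats (adjusted p = 2.31e-05) and 1.30-fold under hydrogen (adjusted p = 0.00217). Under hydrogen Mgst2 rose 1.14-fold (adjusted p = 0.0305) and Ptges, a prostaglandin E synthase, fell 1.14-fold (adjusted p = 0.0323). In the fit of the 2 groups alone these were no calls (adjusted p = 0.0686 and 0.0552). The Mgst2 call also ended without hydrogen normal-diet replicate 1, 2 or 4 or hydrogen CDAA replicate 1 or 2. Ptges lost its call with quantile normalization applied again and without hydrogen normal-diet replicate 1 or 3 or hydrogen CDAA replicate 2 or 3. Ptges had 3.68 to 3.93 log2 in hydrogen CDAA livers, near the 3.68 line used for filtering. Gsto1, Gsto2, Hpgds and Alox5ap were not called between the diets, with log2 changes of −0.10 to 0.19.

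Genes that supply and break down glutathione moved in both directions. Of all genes tested, 27.3% rose and 13.3% fell in control rats, and 32.1% and 17.4% under hydrogen. Of the 16 tested in this list, 5 rose and 3 fell in control rats and 4 rose and 4 fell under hydrogen. The count that rose was 3 in control rats without control CDAA replicate 4, and 2 under hydrogen without hydrogen CDAA replicate 2 or hydrogen normal-diet replicate 1, 2 or 4. Gclc, the catalytic subunit of the rate-limiting synthesis step, rose 1.68-fold in control rats (adjusted p = 9.36e-05) and 1.59-fold under hydrogen (adjusted p = 0.000161). Gss, which completes glutathione, rose 1.93-fold (adjusted p = 7.21e-06) and 2.05-fold (adjusted p = 1.41e-06). Cbs, which starts the making of cysteine from homocysteine, fell 2.57-fold (adjusted p = 2.75e-06) and 3.30-fold (adjusted p = 1.61e-07). The glutathione-degrading Chac2 fell 1.36-fold (adjusted p = 0.00103) and 1.41-fold (adjusted p = 0.000329). Chac1, which also degrades glutathione and is named outside the rule, rose 3.42-fold in control rats (adjusted p = 0.0034) and had a log2 change of −0.31 under hydrogen (adjusted p = 0.564). Its log2 difference between hydrogen and control CDAA livers was −2.03 ± 0.415 (adjusted p = 0.0506), with an interaction of −2.08 ± 0.586 (adjusted p = 0.332). Oplah, which recycles oxoproline, was the list's call for hydrogen in the fit of all arrays, at 1.47-fold higher on the CDAA diet (adjusted p = 0.0283). That call ended in the fit of the 2 groups alone (adjusted p = 0.283) and without control CDAA replicates 1, 3 or 4 or hydrogen CDAA replicate 1 (adjusted p = 0.0783 to 0.0982). The list held 1 call lower for hydrogen on the CDAA diet under a stricter filter and without control normal-diet replicate 4, and 2 with the replicate number as a block and without control CDAA replicate 2.

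Genes that export or process the conjugates fell in 7 and rose in 3 of 12 cases in control rats, and fell in 6 and rose in 3 under hydrogen. The median log2 change was −0.47 and −0.27. Of all genes, 13.3% fell and 27.3% rose in control rats, and 17.4% fell and 32.1% rose under hydrogen. Abcc2, the canalicular exporter of glutathione conjugates into bile, fell 1.40-fold in control rats (adjusted p = 0.00417) and 1.80-fold under hydrogen (adjusted p = 3.58e-05). Abcc3, an exporter on the blood side of the hepatocyte, rose 2.30-fold (adjusted p = 0.00505) and 4.44-fold (adjusted p = 3.75e-05), and Abcc5 rose 2.17-fold (adjusted p = 7.44e-05) and 2.44-fold (adjusted p = 1.43e-05). Abcc6 fell 1.71-fold (adjusted p = 8.96e-06) and 1.46-fold (adjusted p = 7.72e-05). Nat8, which acetylates cysteine conjugates, fell 2.73-fold (adjusted p = 7.06e-05) and 1.63-fold (adjusted p = 0.0108). The efflux transporter Abcg2 fell 1.71-fold in control rats (adjusted p = 0.000178) and 1.74-fold under hydrogen (adjusted p = 9.55e-05).

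Other NRF2 target enzymes rose in 9 and fell in none of 15 cases in control rats, and rose in 10 and fell in 2 under hydrogen, with median log2 changes of 0.49 and 0.50. Without hydrogen normal-diet replicate 4, 1 fell under hydrogen. Over all genes, 27.3% rose and 13.3% fell in control rats, and 32.1% and 17.4% under hydrogen. Gpx2, a glutathione peroxidase, rose 11.4-fold in control rats (adjusted p = 1.51e-05) and 17.6-fold under hydrogen (adjusted p = 1.85e-06), and Aldh1a1, a retinal and aldehyde dehydrogenase, 4.63-fold (adjusted p = 1.56e-05) and 4.96-fold (adjusted p = 5.32e-06). Srxn1, which repairs oxidised peroxiredoxins, rose 2.72-fold in control rats (adjusted p = 0.00168) and 3.15-fold under hydrogen (adjusted p = 0.000445). Hmox1, the inducible heme oxygenase, rose 1.28-fold (adjusted p = 0.0155) and 1.83-fold (adjusted p = 1.28e-05), and Akr1b8 1.68-fold (adjusted p = 0.00594) and 2.21-fold (adjusted p = 0.000186). The Hmox1 call in control rats ended without control CDAA replicate 4 (adjusted p = 0.0504), in the fit of the 2 groups alone (adjusted p = 0.0579) and with quantile normalization applied again (adjusted p = 0.0601). Osgin1, a growth inhibitor responsive to oxidative stress, rose 1.91-fold on the CDAA diet in control rats (adjusted p = 0.000507), had a log2 change of −0.18 under hydrogen (adjusted p = 0.389) and was 1.95-fold lower in hydrogen than in control CDAA livers (adjusted p = 0.0225). The hydrogen call ended in the fit of the 2 groups alone (adjusted p = 0.0975) and without control CDAA replicates 1, 3 or 4 or hydrogen CDAA replicate 2 (adjusted p = 0.052 to 0.0726).

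Of 15 tested regulators of these genes, 4 rose and 2 fell in control rats, and again 4 and 2 under hydrogen. In control rats 1 fell without control normal-diet replicate 2 or 4 or control CDAA replicate 2 or 3, and under hydrogen 1 fell without any 1 of the hydrogen normal-diet arrays or hydrogen CDAA replicate 2 or 3. The counts with all arrays lay near the shares of all genes. Those were 27.3% higher and 13.3% lower in control rats, and 32.1% and 17.4% under hydrogen. The small MAF gene Mafk, whose product pairs with NRF2, rose 1.70-fold in control rats (adjusted p = 0.000235) and 1.84-fold under hydrogen (adjusted p = 4.72e-05). Nr1i3, the xenobiotic receptor CAR, rose 1.95-fold under hydrogen (adjusted p = 0.00052) and had a log2 change of 0.04 in control rats (adjusted p = 0.893). Nr1i2, the receptor PXR, fell 1.32-fold in control rats (adjusted p = 0.00513) and had a log2 change of −0.12 under hydrogen (adjusted p = 0.335). Jun, a subunit of AP-1, rose 3.05-fold in control rats (adjusted p = 0.00848) and had a log2 change of 0.67 under hydrogen (adjusted p = 0.223). For none of these 3 genes did the interaction make a call (adjusted p = 0.312, 0.569 and 0.672). The Jun change under hydrogen became a call in the fit of the 2 groups alone (log2 0.66, adjusted p = 0.0123). That of Nr1i2 became one with quantile normalization applied again (log2 −0.27, adjusted p = 0.0363). Nr1i3 became a call for hydrogen on the CDAA diet without control CDAA replicate 2 (adjusted p = 0.00804) or hydrogen CDAA replicate 4 (adjusted p = 0.0483). The transcripts of NRF2 itself, Nfe2l2, and of its inhibitor Keap1 had log2 changes of 0.23 and −0.14 in control rats (adjusted p = 0.264 and 0.148) and 0.22 and −0.11 under hydrogen (adjusted p = 0.259 and 0.218). They are named outside the rule, after their values were seen. The rule also held Nfe2l1 in control rats and Cebpa and Maff under hydrogen, called regulators whose values are not given here.

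**Figure D4:**
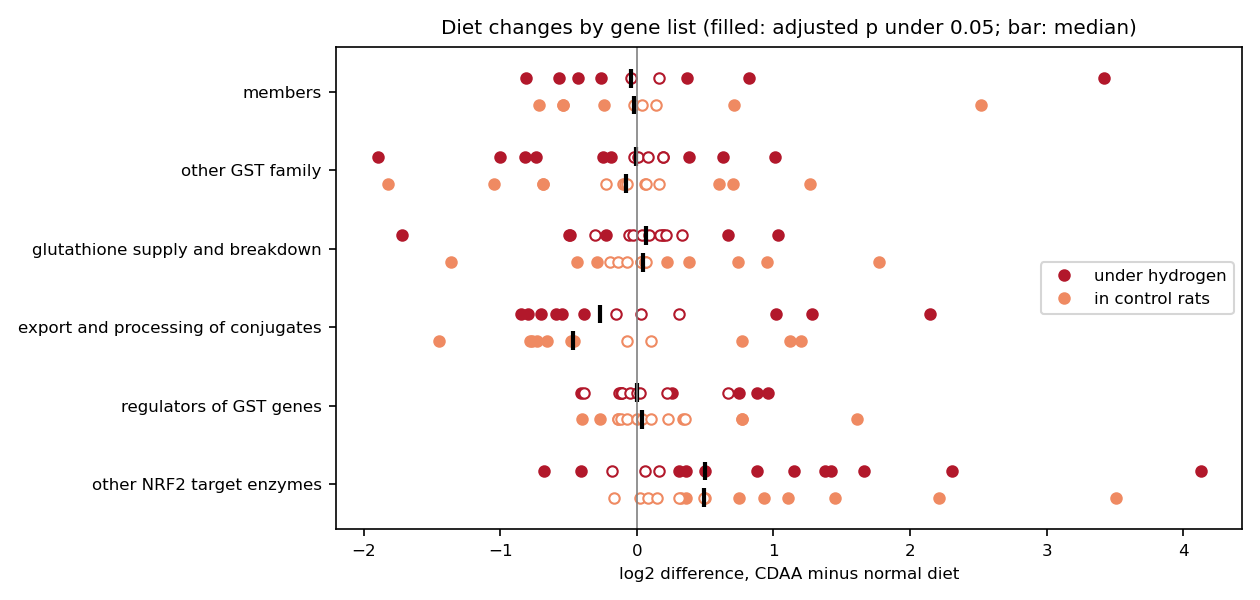
Log2 differences between the CDAA and the normal diet (x axis) for the measured members and 5 lists of related genes, 1 point per gene, under hydrogen and in control rats, with calls filled and the median as a bar. The members spread on both sides of 0, and the NRF2 target list has its median at 0.50 and 0.49.

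Across the 16 arrays, the genes with profiles most like that of Gsta3 were Igfbp2, an insulin-like growth factor binding protein (Pearson r = 0.974), Alkbh3 (0.955), Lect2 (0.954), Acsm2 (0.952) and Nsa2 (0.946). Those most opposed were Afm (−0.965), St8sia3 (−0.954) and Phtf1 (−0.951). For Gstp1 the most alike were Lmo2 (0.962), Akr1c19 (0.959), Gnpda1 (0.952), Grn (0.950) and Ly96 (0.950), and the most opposed Pm20d2 (−0.957), Lypla1 (−0.943) and Slco5a1 (−0.942). These values describe 16 arrays that fall into 2 diets, so a gene changed by the diet can score high. Within the 8 CDAA arrays Igfbp2 had r = 0.92 with Gsta3, and within the 8 normal-diet arrays r = 0.84. Lmo2 had r = 0.86 and 0.89 with Gstp1. Both genes were picked by their r over these same arrays, so their r within each diet is no separate evidence of likeness. Gsta3 and Gstp1 themselves had r = 0.787 over all arrays but 0.13 within the CDAA arrays and 0.47 within the normal-diet arrays. On the normal diet Gsta3 was 3.68 to 4.21 log2 on every array but control normal-diet replicate 4, which had 5.88. How far the r values of Gsta3 within the normal diet rest on that array was not tested. Gsta3 and Gsta4, which the diet moved in opposite directions, had r = −0.623 over all arrays and 0.80 within the CDAA arrays.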

How the data were processed

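Per the submitters' processing notes, the authors used RMA and Affymetrix Expression Console (the sources used here give no version). The deposited value table holds log2 signals of every probe set on every array. RMA includes quantile normalization, so a shift of all transcripts in a group would not show. Signals of different probe sets were not compared. The labels name no array strip or scan day, so none was tested as a batch.

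Of 31139 probe sets, 97 array controls were left out and 22634 passed the filter (above the 30th percentile, 3.68, on at least 4 arrays). Symbols came from the platform's annotation, which names a single gene for 19167 probe sets, more than one for 474 and none for 11498. Through the Entrez identifier 0 symbols changed. Limma 3.58.1 in R 4.3.3 fitted 1 mean per group to all 16 arrays, with eBayes, with Benjamini-Hochberg adjustment within each comparison over every tested probe set. All adjusted p-values in the text come from limma. Errors beside log2 changes are standard errors unless SD is stated. The fit was tested on simulated data. The design text gives 4 rats per group, no 2 arrays were identical, and their number limits the precision.

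The members and lists were chosen with earlier results of these data known. Named genes come from the members, the family list, up to 4 called genes of smallest p per list and diet comparison, calls for hydrogen, and the 5 most and 3 least alike profiles. Hepatocyte, macrophage, stellate and endothelial markers, and some regulators and blood cell markers, that this rule picked are given as counts only. Promoter windows came from RefSeq (GRCr8) for 8 members. Marker lists of hepatocytes, bile duct and progenitor cells, macrophages, stellate and endothelial cells and blood cells served as checks. On the CDAA diet, 27.3% of all genes rose and 13.3% fell in control rats, and 32.1% and 17.4% under hydrogen. Of 4 tested blood cell markers, 2 rose and 2 fell on the CDAA diet in control rats, and 2 rose and 1 fell under hydrogen. In control rats the count that rose was 1 in 16 of 23 alternatives, in which Cd3e (adjusted p = 0.0494) was no call. Alternatives changed the normalization, the filter, the variance model, the samples fitted, the block, the probe set and left out each array. Python 3.11.15 and matplotlib 3.10.9 made the figures.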

Additional observations from a re-analysis of the deposited data

How the results depend on the processing

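Of 1031 recomputed log2 changes of members, 1012 kept their side of the threshold, 17 lost a call, 2 gained one and 0 called values turned. The lost calls were those of Gstk1 in control rats (7 of 23 alternatives, log2 −0.27 to −0.20 over all), of Gstm4 under hydrogen (4 of 23) and of Gstt2 under hydrogen (5 of 24), and that of Gstt2 in control rats with its other probe set. The adjusted p ranged over 0.00981 to 0.105 for Gstk1 in control rats and 0.000654 to 0.019 for Gsta3 in control rats. Leaving out 1 array, the number of members called higher was 2 in control rats, 2 to 4 under hydrogen for the diet, and 0 to 1 for hydrogen on the CDAA diet, and the number called lower was 3 to 4 in each diet comparison. The cause of these shifts was not tested. Deviations from the group means correlated at −0.13 to 0.33 between same-numbered arrays (median 0.08). Between arrays of other numbers they correlated at −0.46 to 0.25 (median −0.01). For 2 of 16 arrays the own number was the best match in every other group. Whether replicate numbers mark pairs cannot be told from these values. With the replicate number as a block, the diet effect on Gsta3 in control rats was 2.52 (adjusted p = 0.00399) and the counts of members called, 2 higher and 4 lower in control rats, did not change. Over all probe sets, 2 were called for hydrogen on the normal diet (0 to 17 over the alternatives), 71 on the CDAA diet (2 to 346) and 1 for the interaction (0 to 21). The regulators called lower on the CDAA diet were 2 in each comparison and 1 to 4 over the alternatives, and macrophage and stellate and endothelial markers called higher in control rats fell to 2 and 3 with quantile normalization applied again and without some single arrays. Precision is limited by 4 arrays per group and, for Gsta3 on the normal diet, by signals near 3.68.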
